A study of Mus musculus with 9 samples.

Results

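HS3A8-high and HS3A8-low megakaryocyte-erythrocyte progenitors (MEPs) were compared as replicate pairs in 6 of the 9 RNA-seq libraries of this study. MEPs were sorted from mouse bone marrow as Lin-, c-kit+, CD34- and FcγRII/III low cells, and were divided by binding of HS3A8, a single-chain antibody fragment (scFv) that recognizes heparan sulfate (HS). Libraries were taken by their labels, 3 labelled high and 3 labelled low for scFv binding, and 25000 cells went into each library. All cells were untreated as far as the labels state, which name no strain, age or sex, and the study's methods list wild-type C57Bl/6 animals among its mice. The remaining 3 libraries, MEPs mock-sorted with the MPB49 scFv that binds no HS, were not part of the comparison. Both fractions share the MEP gate, which is drawn on surface proteins and can hold progenitors of more than 1 kind. In bulk libraries of this kind, fewer cells of a type and less RNA per cell cannot be told apart.

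MEPs give rise to erythroid cells, which make hemoglobin, and to megakaryocytes, which shed platelets. Surface receptors bind the growth factors and cytokines of the marrow, kinase cascades carry their signal inward, and transcription factors such as GATA, ETS, RUNX and KLF proteins set the lineage programs. HS chains on proteoglycans bind many of the same ligands, among them fibroblast growth factors, and act as their co-receptors.

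Depth was similar across the 6 libraries, with 11781637 to 15850037 counts each, and a count of 0 allows up to 3 counts, or 0.182 to 0.259 CPM (counts scaled to library size), for counting error only. The replicate number entered the test as a block because the comparison is defined by it. Libraries that share a number deviated from their group means in parallel (r from 0.345 to 0.517 over genes, against -0.482 to 0.114 for different numbers). Deviations within a group cancel, so these ranges are not independent and only describe the pairing. The study describes the replicates as individual mice. The sources used here do not say whether both fractions of a number came from the same mouse. Replicate 3 stood apart in both fractions by granulocyte and monocyte transcripts. The summed level of 22 such markers was 2272 CPM in HS3A8-high 3 and 5932 CPM in HS3A8-low 3, against 13.98 to 337 CPM in the other 4 libraries. Counts are therefore also given with each replicate left out.

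Among 11791 genes that passed the count filter, 1367 differed at an adjusted p under 0.05 (edgeR quasi-likelihood test, Benjamini-Hochberg adjustment), which is 11.6% of the genes tested. Of these, 392 (3.32% of genes tested) were higher in HS3A8-high, and 975 (8.27%) were higher in HS3A8-low. The 2 directions also differed in size. Calls toward HS3A8-high had a median log2 change of 0.37 in size, and calls toward HS3A8-low one of 1.93. A size of at least 1 on the log2 scale was reached by 2 of the former and 722 of the latter. Genes higher in HS3A8-low were the less abundant set. Together they took up 5.30% of all counts in HS3A8-low and 2.68% in HS3A8-high, and 57 of them had no more than 3 counts in any HS3A8-high library. Genes higher in HS3A8-high held 15.6% of counts in HS3A8-high and 12.8% in HS3A8-low. The count depended on the pairs. Without the block 451 genes were called, 72 of them higher in HS3A8-high, and with replicate 1, 2 or 3 left out the blocked test called 266, 639 and 3569 genes. The direction depended on the scaling in 1 alternative, chosen after seeing the data. With trends in GC content and length removed from each library without recentring, the median log2 fold change over all genes was 0.24, and 3728 of 4817 called genes were higher in HS3A8-high.

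**Figure D1:**
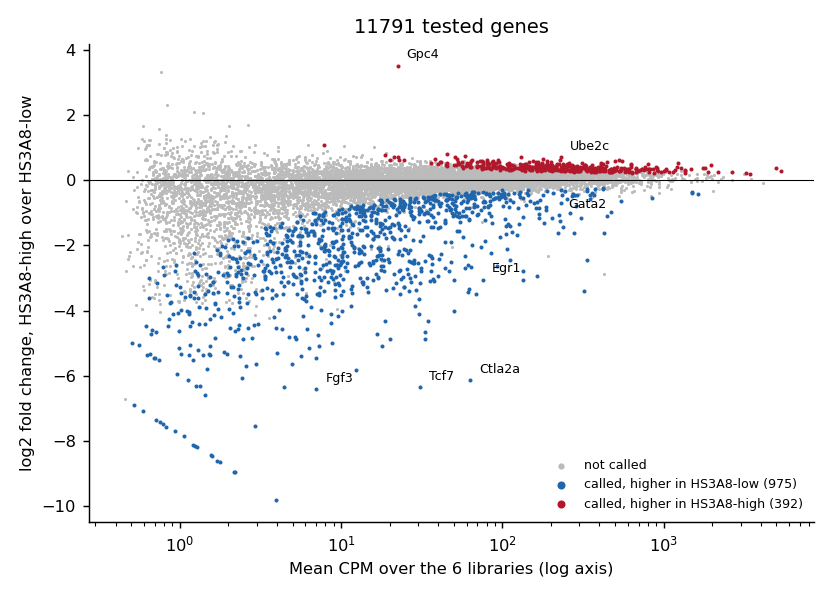
Log2 fold change of HS3A8-high over HS3A8-low (y axis) against mean CPM over the 6 libraries (x axis, log scale), 1 point per tested gene. Called genes higher in HS3A8-low (blue, 975) reach larger changes than those higher in HS3A8-high (red, 392), apart from Gpc4 at 3.50. Fitted fold changes of genes with no count in HS3A8-high, at the lower edge, depend on the prior count.

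Gpc4, which encodes glypican-4, a membrane-anchored core protein that carries HS chains, had the largest called change toward HS3A8-high. Its level was 39.4, 42.1 and 41.8 CPM in HS3A8-high and 3.95, 5.27 and 1.90 CPM in HS3A8-low. All 3 HS3A8-high libraries lay above all 3 HS3A8-low libraries (log2 fold change 3.50 ± 0.28 SE, adjusted p = 0.00357). Mt2, a metallothionein that binds zinc and copper, and Ube2c, the ubiquitin-conjugating enzyme of the anaphase-promoting complex, led this direction by adjusted p together with Gpc4 among the genes chosen by the rule for naming. Mt2 was at 186, 273 and 194 CPM in HS3A8-high and 118, 169.7 and 130.1 CPM in HS3A8-low (log2 fold change 0.64 ± 0.066 SE, adjusted p = 0.00656), without overlap of the fractions, and 73.5% of its exon length overlaps other annotated genes. Whether the counting used strand is not given in the sources used here, so reads of overlapping genes may not have been told apart. Mt1, its neighbour and relative that was singled out after its values were seen, was at 549, 673 and 578 CPM in HS3A8-high and 354, 469 and 388 CPM in HS3A8-low (log2 fold change 0.58 ± 0.058 SE, adjusted p = 0.00622). Ube2c was at 279, 287 and 294 CPM in HS3A8-high and 155, 176 and 197 CPM in HS3A8-low (log2 fold change 0.71 ± 0.076 SE, adjusted p = 0.00734), again without overlap, with 22.8% of its exon length shared. The 3 genes with the smallest adjusted p in the other direction were Ctla2a, an inhibitor of cysteine proteases, and the megakaryocyte genes Itga2b and Pf4, which encode the CD41 integrin chain and platelet factor 4. Ctla2a was at 1.09, 1.29 and 2.66 CPM in HS3A8-high and 47.3, 155 and 169 CPM in HS3A8-low (log2 fold change -6.13 ± 0.24 SE, adjusted p = 0.000847), with 16.3% of its exon length shared. Itga2b stood at 8.13, 4.33 and 5.12 CPM in HS3A8-high and 130.1, 85.1 and 69.3 CPM in HS3A8-low (log2 fold change -4.01 ± 0.14 SE, adjusted p = 0.000847). For Pf4 the values were 4.80, 3.34 and 1.86 CPM in HS3A8-high and 87.0, 59.3 and 50.7 CPM in HS3A8-low (log2 fold change -4.33 ± 0.17 SE, adjusted p = 0.000847). None of these 3 genes had overlapping fractions, and each kept its call without the block and with any 1 replicate left out. In the MPB49 control, which holds MEPs not divided by HS3A8, Gpc4 was at 30.1, 33.0 and 25.3 CPM, between the fractions. Ctla2a was at 136, 57.5 and 71.9 CPM and Itga2b at 79.1, 45.8 and 48.9 CPM in these libraries, above every HS3A8-high library.

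The promoters of these 6 genes are shown because these genes had the smallest adjusted p in each direction among genes chosen by the rule for naming. Each covers 250 bases before and 50 bases after the RefSeq transcript start on GRCm38.p6 (for Ctla2a the first of 2 listed starts, and for Mt2 a start after which no GENCODE transcript covers bases 6 to 45, unlike the other 5), read 5′ to 3′ on the gene's strand, and capitals mark matches on either strand to the motifs searched. GATA factors were searched by the letters AGATAA. RUNX proteins were represented by TGTGGT, while ETS proteins had CCGGAAG as their motif. KLF proteins were searched by CCACACCC, and the E-box of TAL by CAGCTG. Mitotic genes are known for the CCAAT box, searched by its own letters, and for the cell-cycle homology region, searched as TTTGAA. TCF/LEF proteins were searched by CTTTGA, which can overlap the previous motif.
Gpc4, chrX:52164874-52165173, minus strand: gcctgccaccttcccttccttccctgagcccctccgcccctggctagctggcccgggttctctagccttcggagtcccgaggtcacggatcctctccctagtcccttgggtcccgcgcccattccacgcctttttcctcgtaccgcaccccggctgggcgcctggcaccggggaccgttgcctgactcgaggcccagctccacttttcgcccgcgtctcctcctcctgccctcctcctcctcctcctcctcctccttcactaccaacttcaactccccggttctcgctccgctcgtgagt
Mt2, chr8:94172368-94172667, plus strand: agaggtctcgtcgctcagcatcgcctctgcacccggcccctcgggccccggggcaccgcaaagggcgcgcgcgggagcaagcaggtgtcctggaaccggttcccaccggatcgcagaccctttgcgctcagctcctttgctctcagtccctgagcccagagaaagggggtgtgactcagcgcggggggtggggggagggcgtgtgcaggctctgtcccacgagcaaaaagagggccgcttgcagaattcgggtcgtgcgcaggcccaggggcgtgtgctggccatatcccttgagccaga
Ube2c, chr2:164769679-164769978, plus strand: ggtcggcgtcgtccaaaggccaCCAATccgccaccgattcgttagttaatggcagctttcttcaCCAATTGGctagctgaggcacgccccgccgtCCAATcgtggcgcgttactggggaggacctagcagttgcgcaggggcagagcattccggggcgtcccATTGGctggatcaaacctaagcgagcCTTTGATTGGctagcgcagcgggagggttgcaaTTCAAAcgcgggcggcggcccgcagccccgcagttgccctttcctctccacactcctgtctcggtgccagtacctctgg
Ctla2a, chr13:60936576-60936875, minus strand: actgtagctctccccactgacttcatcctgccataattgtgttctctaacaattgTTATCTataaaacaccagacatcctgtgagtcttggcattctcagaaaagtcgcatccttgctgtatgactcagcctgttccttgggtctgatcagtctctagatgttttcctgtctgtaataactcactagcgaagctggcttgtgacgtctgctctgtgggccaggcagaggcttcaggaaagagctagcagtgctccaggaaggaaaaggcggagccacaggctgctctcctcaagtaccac
Itga2b, chr11:102469834-102470133, minus strand: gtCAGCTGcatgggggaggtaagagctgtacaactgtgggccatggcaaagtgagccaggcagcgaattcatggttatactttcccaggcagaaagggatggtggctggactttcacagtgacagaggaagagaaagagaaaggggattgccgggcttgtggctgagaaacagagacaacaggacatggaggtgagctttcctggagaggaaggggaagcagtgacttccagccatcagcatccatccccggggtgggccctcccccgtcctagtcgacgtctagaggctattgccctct
Pf4, chr5:90772185-90772484, plus strand: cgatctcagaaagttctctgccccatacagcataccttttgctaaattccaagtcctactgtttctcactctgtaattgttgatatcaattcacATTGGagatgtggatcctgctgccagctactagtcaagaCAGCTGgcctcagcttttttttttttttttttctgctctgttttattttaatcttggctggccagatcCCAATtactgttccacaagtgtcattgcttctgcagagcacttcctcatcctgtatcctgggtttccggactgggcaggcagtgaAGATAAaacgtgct
No motif matched in the Gpc4 and Mt2 promoters. The Ube2c promoter held 6 CCAAT matches, 1 TTTGAA match and 1 CTTTGA match. Ctla2a had 1 AGATAA match, Itga2b 1 CAGCTG match, and Pf4 had 1 AGATAA, 1 CAGCTG and 2 CCAAT matches. Over the first listed promoter of 27025 genes, CCAAT was present in 37.9%, TTTGAA in 18.1%, CTTTGA in 16.2%, CAGCTG in 16.1% and AGATAA in 11.4%. The RUNX, ETS and KLF motifs matched in none of the 6 promoters and were present in 16.9%, 9.12% and 3.57% of all promoters. A match describes these letters only, and binding was not measured.

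The other leading genes of HS3A8-high changed by less. Rgs9bp, which anchors a regulator of G protein signalling at the membrane, was at 17.5, 7.22 and 6.98 CPM in HS3A8-high and 8.57, 3.17 and 3.37 CPM in HS3A8-low (log2 fold change 1.09 ± 0.22 SE, adjusted p = 0.0314). The level in each HS3A8-high library exceeded its own pair, yet the fractions overlapped as a whole. Cad, the enzyme that starts pyrimidine synthesis, was at 780.4, 604 and 535 CPM in HS3A8-high and 516, 431 and 306 CPM in HS3A8-low (log2 fold change 0.63 ± 0.077 SE, adjusted p = 0.00983). Gja1, the gap junction protein connexin 43, was at 89.8, 69.5 and 59.7 CPM in HS3A8-high and 54.8, 43.4 and 34.2 CPM in HS3A8-low (log2 fold change 0.73 ± 0.088 SE, adjusted p = 0.00928). Atp7b, a copper-transporting ATPase, was at 205, 154 and 129.9 CPM in HS3A8-high and 109, 96.1 and 90.0 CPM in HS3A8-low (log2 fold change 0.71 ± 0.093 SE, adjusted p = 0.0117). The fractions did not overlap for Cad, Gja1 and Atp7b. Spindle genes Kifc1 and Aspm, the histone chaperone Npm3, the mitochondrial genes Top1mt, Cox10 and Coq4 and the kinesin Kif24 also belonged to this group, with log2 fold changes between 0.64 and 0.81 and adjusted p between 0.0138 and 0.0355. Of the 15 genes, Gpc4 and Ube2c kept their calls without the block.

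On the HS3A8-low side the leading genes were near 0 in HS3A8-high. Fgf3, a fibroblast growth factor, was at 0.320, 0.152 and 0 CPM in HS3A8-high and 15.98, 16.9 and 8.72 CPM in HS3A8-low (log2 fold change -6.42 ± 0.51 SE, adjusted p = 0.00333). Tcf7, the HMG-box effector of WNT signalling also known as TCF1, was at 1.09, 0.304 and 0.732 CPM in HS3A8-high and 84.4, 67.2 and 31.5 CPM in HS3A8-low (log2 fold change -6.35 ± 0.33 SE, adjusted p = 0.00224). Mycn, a MYC family transcription factor, was at 1.54, 0.608 and 1.397 CPM in HS3A8-high and 39.9, 34.0 and 22.4 CPM in HS3A8-low (log2 fold change -4.73 ± 0.33 SE, adjusted p = 0.00273). The fractions did not overlap for these 3 genes, which kept their calls without the block and with any 1 replicate left out. The MPB49 control lay between the fractions, at 5.71, 4.59 and 4.17 CPM for Fgf3, 13.03, 13.04 and 12.2 CPM for Tcf7 and 11.6, 14.9 and 15.7 CPM for Mycn. The receptor tyrosine kinase gene Tie1, known from endothelium and blood stem cells, was at 0.768, 0 and 0.333 CPM in HS3A8-high and 12.3, 9.59 and 7.94 CPM in HS3A8-low (log2 fold change -4.82 ± 0.65 SE, adjusted p = 0.0125). Transcripts best known from T and NK cells were also among them. Trbc1, a T-cell receptor beta constant gene with near-identical copies that reads can split between, was at 0.320, 0.152 and 0.798 CPM in HS3A8-high and 25.0, 25.2 and 22.4 CPM in HS3A8-low (log2 fold change -5.81 ± 0.42 SE, adjusted p = 0.00277). The gamma chain gene Tcrg-C1, Ctsw (cathepsin W), the HMG-box gene Tox2, the nuclear receptor Rora and Pdcd1 (the PD-1 receptor) had log2 fold changes from -5.45 to -4.99 with adjusted p from 0.00312 to 0.0259. Serpina3g, a serine protease inhibitor of a multigene cluster, was at 3.84, 0.532 and 2.46 CPM in HS3A8-high and 67.0, 63.9 and 60.9 CPM in HS3A8-low (log2 fold change -4.86 ± 0.42 SE, adjusted p = 0.00396), and the actin-binding gene Ablim1 changed by -4.88 on the log2 scale (adjusted p = 0.0268). Prg2, the eosinophil granule protein, differed from all of these. It was at 0.0640, 0 and 3.99 CPM in HS3A8-high and 2.43, 0.361 and 115 CPM in HS3A8-low (log2 fold change -4.86 ± 0.26 SE, adjusted p = 0.00224), so its level came almost entirely from HS3A8-low 3, its fractions overlapped, and without the block its adjusted p was 0.293. Without replicate 3 it did not pass the count filter.

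All receptors called by the blocked edgeR test lay in 1 direction. Of 264 receptor and receptor-associated genes in 5 lists, 142 passed the count filter, and 52 of these were called, 36.6% against 11.6% over all genes tested. All 52 were higher in HS3A8-low, and the median log2 fold change of the 142 was -1.33 against -0.02 over all tested genes. A receptor scarce in HS3A8-high passed the filter through its HS3A8-low libraries, so the share among those that passed is a description. Among receptors with a mean of at least 5 CPM over the 6 libraries 34 of 80 were called. With the block left out 26 receptors were called, and with replicate 1, 2 or 3 left out 18, 39 and 92, of which 6 were higher in HS3A8-high when replicate 3 was absent. Other tests of the 3 pairs also called receptors in that direction. DESeq2 called 68 receptors, 3 of them higher in HS3A8-high, and limma voom called 90, 4 of them higher in HS3A8-high. Between the fractions, 10 of the 52 called receptors overlapped and 42 did not, where 1165 of all 1367 called genes did not.

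Cytokine and growth factor receptors contributed 21 called genes of 57 tested. Pdgfrb, a platelet-derived growth factor receptor, was at 2.18, 2.51 and 0.665 CPM in HS3A8-high and 22.9, 24.9 and 8.20 CPM in HS3A8-low (log2 fold change -3.41 ± 0.22 SE, adjusted p = 0.00263). Cd27, a TNF family receptor of lymphoid and early progenitor cells, was at 1.79, 1.22 and 5.99 CPM in HS3A8-high and 21.7, 31.4 and 24.4 CPM in HS3A8-low (log2 fold change -3.28 ± 0.49 SE, adjusted p = 0.0163). The interleukin-7 receptor chain Il7r was at 1.92, 0 and 0.333 CPM in HS3A8-high and 9.42, 4.83 and 5.79 CPM in HS3A8-low (log2 fold change -3.62 ± 0.77 SE, adjusted p = 0.0367). Il12rb1, a chain shared by the interleukin-12 and interleukin-23 receptors, was at 0.192, 0.456 and 0.0665 CPM in HS3A8-high and 2.61, 4.11 and 1.12 CPM in HS3A8-low (log2 fold change -3.50 ± 0.55 SE, adjusted p = 0.0183), and Tnfrsf13b, the TACI receptor, at 2.24, 0.304 and 3.72 CPM in HS3A8-high and 17.0, 14.5 and 17.6 CPM in HS3A8-low (log2 fold change -3.18 ± 0.54 SE, adjusted p = 0.0221). HS3A8-low exceeded HS3A8-high without overlap for each of the 5. The main receptors of erythroid growth, Kit and Epor, were not called by the blocked edgeR test. Among 11 tested receptors of erythroid and stem cell growth this test called 0 higher in HS3A8-high. On the same 3 pairs DESeq2 and limma voom each called 3 in that direction. With other scalings of the edgeR test, median centring called 2, DESeq2 size factors 1 and upper-quartile scaling 0. Kit, the stem cell factor receptor on which the cells were gated, was at 812, 621 and 493 CPM in HS3A8-high and 734, 532 and 393 CPM in HS3A8-low (log2 fold change 0.23 ± 0.062 SE, adjusted p = 0.0652). Epor, the erythropoietin receptor, was at 266, 302 and 279.9 CPM in HS3A8-high and 212, 235 and 249.6 CPM in HS3A8-low (log2 fold change 0.28 ± 0.070 SE, adjusted p = 0.0525), with all HS3A8-high values above all HS3A8-low values. Both were called when replicate 3 was left out (adjusted p = 0.00682 for Kit and 0.000229 for Epor), and neither when replicate 1 or 2 was left out (adjusted p = 0.250 and 0.291 for Kit, 0.288 and 0.292 for Epor). Ifngr1, an interferon gamma receptor chain, was at 490.1, 486 and 420.1 CPM in HS3A8-high and 484, 508 and 429 CPM in HS3A8-low (log2 fold change -0.025 ± 0.057 SE, adjusted p = 0.811). Of 15 tested receptors of myeloid cytokines 4 were called. Csf1r, the macrophage colony-stimulating factor receptor, was singled out after its values were seen and was at 0.448, 0.532 and 33.9 CPM in HS3A8-high and 1.94, 1.73 and 69.6 CPM in HS3A8-low (log2 fold change -1.35 ± 0.25 SE, adjusted p = 0.0269), high in both libraries of replicate 3.

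G protein-coupled receptors, which pass signals of chemokines, lipids, nucleotides and proteases, had 16 called members of 42 tested and a median log2 fold change of -1.69. F2rl2, the thrombin receptor PAR3, was at 0.320, 0 and 0 CPM in HS3A8-high and 13.9, 7.50 and 4.66 CPM in HS3A8-low (log2 fold change -6.35 ± 0.68 SE, adjusted p = 0.00720). Adgrl4, an adhesion receptor known from endothelium, was at 2.18, 0.152 and 3.13 CPM in HS3A8-high and 23.8, 39.7 and 43.4 CPM in HS3A8-low (log2 fold change -4.33 ± 0.60 SE, adjusted p = 0.0133). Gpr171 was at 1.34, 0.304 and 2.99 CPM in HS3A8-high and 13.9, 17.96 and 18.6 CPM in HS3A8-low (log2 fold change -3.60 ± 0.54 SE, adjusted p = 0.0166). Tbxa2r, the thromboxane A2 receptor of platelets, was at 0.384, 0.304 and 0.665 CPM in HS3A8-high and 8.08, 5.63 and 2.85 CPM in HS3A8-low (log2 fold change -3.50 ± 0.59 SE, adjusted p = 0.0218). The chemokine receptor Cxcr5 and the adenosine receptor Adora2a were detected at 4 and 5 counts over the 3 HS3A8-high libraries and changed by -5.09 and -4.84 on the log2 scale (adjusted p = 0.0236 and 0.0339). None of the 6 overlapped between fractions. A pair of more abundant receptors was singled out after their values were seen. The thrombin receptor F2r (PAR1) was at 67.0, 46.8 and 37.6 CPM in HS3A8-high and 214, 152 and 114 CPM in HS3A8-low (log2 fold change -1.66 ± 0.076 SE, adjusted p = 0.00159), and the adhesion receptor Adgrg1 (GPR56) at 369, 288 and 282 CPM in HS3A8-high and 785, 651 and 461 CPM in HS3A8-low (log2 fold change -0.99 ± 0.10 SE, adjusted p = 0.00622). Cnr2 (cannabinoid receptor 2), Adgre5 (CD97) and Adgrl2 were the most abundant members that were not called, with log2 fold changes of 0.36, 0.10 and -0.16. Regulators of G protein signalling, the RGS proteins that switch these receptors' G proteins off, moved in the same direction, with 5 called of 8 tested. Rgs1 was at 1.47, 0.912 and 6.19 CPM in HS3A8-high and 44.9, 70.2 and 76.1 CPM in HS3A8-low (log2 fold change -4.64 ± 0.44 SE, adjusted p = 0.00528), and Rgs18, the family member of megakaryocytes and platelets, was at 24.4, 27.7 and 25.7 CPM in HS3A8-high and 75.8, 84.4 and 104 CPM in HS3A8-low (log2 fold change -1.76 ± 0.12 SE, adjusted p = 0.00263). Rgs2, Rgs14 and Rgs19 were called at -3.15, -1.19 and -0.84, while Rgs12, Rgs10 and Rgs3 were not called, with adjusted p of 0.925, 0.802 and 0.106.

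Integrins, the adhesion receptors of leukocytes and platelets, had 7 called members of 11 tested. Itgal, the alpha chain of LFA-1, was at 8.71, 4.03 and 12.1 CPM in HS3A8-high and 59.2, 41.4 and 61.7 CPM in HS3A8-low (log2 fold change -2.78 ± 0.21 SE, adjusted p = 0.00302). Its partner Itgb2 was at 26.2, 27.2 and 43.0 CPM in HS3A8-high and 56.9, 55.3 and 92.2 CPM in HS3A8-low (log2 fold change -1.08 ± 0.092 SE, adjusted p = 0.00393), and Itgb7 at 28.05, 25.9 and 59.9 CPM in HS3A8-high and 67.4, 61.7 and 131 CPM in HS3A8-low (log2 fold change -1.21 ± 0.088 SE, adjusted p = 0.00277). All 3 were higher in HS3A8-low without overlap. Itgax and Itgam, alpha chains of myeloid cells, were called at -4.41 and -2.31, the latter with 68.7% of its exon length shared with another gene and with overlapping fractions. The laminin-binding chain Itga6 changed by -0.66 (SE 0.15, adjusted p = 0.0418). Itgb1, Itga5 and Itga4, which form fibronectin receptors, were abundant and not called. Itgb1 was at 349, 304 and 301 CPM in HS3A8-high and 324, 307 and 287 CPM in HS3A8-low (log2 fold change 0.055 ± 0.062 SE, adjusted p = 0.611), Itga5 was not called (0.22 on the log2 scale, adjusted p = 0.120), nor was Itga4 (adjusted p = 0.997).

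Guidance receptors and lectins were scarcer. Of 16 tested ephrin, semaphorin, plexin and SLIT genes 4 were called. Robo3, a receptor of the SLIT pathway, had no count in any HS3A8-high library and 3.65, 3.89 and 5.53 CPM in HS3A8-low (adjusted p = 0.0178), at least 21.1-fold higher against a floor of 3 counts per library. Nrp1 (neuropilin 1) was at 0.128, 0 and 1.26 CPM in HS3A8-high and 3.10, 1.37 and 9.84 CPM in HS3A8-low (log2 fold change -3.77 ± 0.65 SE, adjusted p = 0.0229), and the ephrin receptor Ephb6 at 3.71, 3.95 and 2.46 CPM in HS3A8-high and 13.3, 8.94 and 7.86 CPM in HS3A8-low (log2 fold change -1.56 ± 0.26 SE, adjusted p = 0.0216), both without overlap. Sema4a was at 2.18, 1.22 and 22.5 CPM in HS3A8-high and 14.2, 10.3 and 41.2 CPM in HS3A8-low (log2 fold change -2.02 ± 0.44 SE, adjusted p = 0.0401), with overlap because HS3A8-high 3 exceeded 2 of the HS3A8-low libraries. Plxnc1, Sema4d and Plxna1 were not called (adjusted p = 0.856, 0.831 and 0.218). Among Toll-like, NOD-like and C-type lectin receptors 4 of 16 were called. Clec4d and Clec4e, lectins that sense microbial glycolipids, were at 4.29, 5.55 and 4.26 CPM in HS3A8-high and 26.6, 21.9 and 16.7 CPM in HS3A8-low (log2 fold change -2.19 ± 0.22 SE, adjusted p = 0.00575) and at 0.128, 0.152 and 0.200 CPM in HS3A8-high and 2.80, 4.62 and 4.404 CPM in HS3A8-low (log2 fold change -4.53 ± 0.51 SE, adjusted p = 0.00773). Tlr12 was called with 0.0640, 0 and 0.133 CPM in HS3A8-high and 3.95, 1.66 and 3.45 CPM in HS3A8-low. The myeloid lectin Clec12a was called at -2.50, where replicate 3 held 27.5 CPM in HS3A8-high and 73.8 CPM in HS3A8-low. Myd88, the adaptor of Toll-like receptors, was at 55.4, 62.7 and 69.0 CPM in HS3A8-high and 50.8, 57.6 and 64.0 CPM in HS3A8-low (log2 fold change 0.12 ± 0.084 SE, adjusted p = 0.404).

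**Figure D2:**
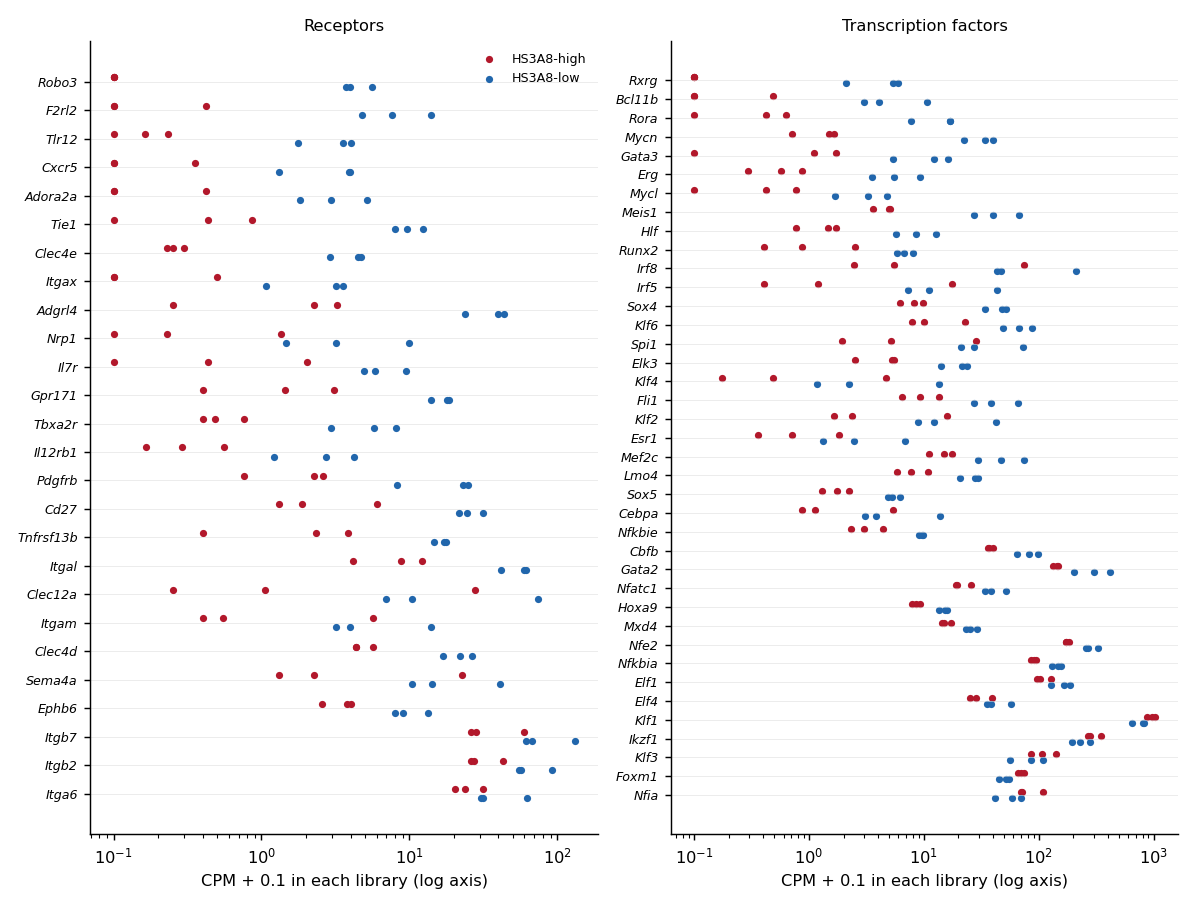
CPM plus 0.1 in each library (x axis, log scale) of named called receptors (left) and members of the transcription factor lists (right), with HS3A8-high libraries in red and HS3A8-low libraries in blue. Red points lie left of blue points for most receptors. Of the 52 called receptors 42 had no overlap, as had 1165 of all 1367 called genes. Among the factors at the foot of the right panel, red points lie to the right for Klf1 and Foxm1. For Ikzf1, Klf3 and Nfia red and blue points overlap, and HS3A8-high was higher within each pair.

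Transcription factors were called in both directions by the blocked edgeR test of the 3 pairs. Of 230 factors and cofactors in 9 lists 163 passed the filter and 39 were called (23.9%, against 11.6% over all genes), 34 higher in HS3A8-low and 5 higher in HS3A8-high. Their median log2 fold change was -0.21, and among factors with a mean of at least 5 CPM 30 of 124 were called. Without the block 17 were called, 0 of them higher in HS3A8-high. With replicate 1, 2 or 3 left out 10, 26 and 75 were called, of which 0, 1 and 15 were higher in HS3A8-high.

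Of 17 tested GATA, TAL, LMO and LDB genes 3 were called (17.6%, against 11.6% of all tested genes), with a list median of -0.019. Gata2, the factor of stem cells, mast cells and early megakaryocytes, was at 144, 146 and 133 CPM in HS3A8-high and 419.9, 301 and 203 CPM in HS3A8-low (log2 fold change -1.07 ± 0.17 SE, adjusted p = 0.0186), lower in each HS3A8-high library than in any HS3A8-low library. Gata3, which directs T-cell and innate lymphoid fates, was at 1.601, 0 and 0.998 CPM in HS3A8-high and 16.1, 12.2 and 5.27 CPM in HS3A8-low (log2 fold change -3.72 ± 0.80 SE, adjusted p = 0.0379), and Lmo4 at 7.62, 5.78 and 10.7 CPM in HS3A8-high and 29.2, 27.6 and 20.6 CPM in HS3A8-low (log2 fold change -1.70 ± 0.28 SE, adjusted p = 0.0203). Gata1, the central factor of erythroid and megakaryocyte cells, was at 526, 513 and 475 CPM in HS3A8-high and 449.6, 469 and 378 CPM in HS3A8-low (log2 fold change 0.23 ± 0.065 SE, adjusted p = 0.0746), and its repressor partner Gfi1b at 480.5, 535 and 504 CPM in HS3A8-high and 447, 512 and 428 CPM in HS3A8-low (log2 fold change 0.13 ± 0.063 SE, adjusted p = 0.216). Neither was called. Tcf3, an E protein partner of TAL1, was at 644, 628 and 653 CPM in HS3A8-high and 581, 541 and 506 CPM in HS3A8-low (log2 fold change 0.24 ± 0.066 SE, adjusted p = 0.0662) and was not called either.

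ETS factors were called 6 times among 16 tested, always higher in HS3A8-low. Fli1, required for megakaryocyte maturation, was at 9.09, 6.31 and 13.3 CPM in HS3A8-high and 65.3, 38.6 and 27.0 CPM in HS3A8-low (log2 fold change -2.16 ± 0.37 SE, adjusted p = 0.0223). Erg, a stem cell factor, was at 0.192, 0.760 and 0.466 CPM in HS3A8-high and 9.24, 5.41 and 3.45 CPM in HS3A8-low (log2 fold change -3.61 ± 0.62 SE, adjusted p = 0.0229), and Elk3 at 5.38, 2.43 and 5.19 CPM in HS3A8-high and 23.7, 21.6 and 13.9 CPM in HS3A8-low (log2 fold change -2.20 ± 0.34 SE, adjusted p = 0.0181). For these 3 the fractions did not overlap. Spi1, the myeloid factor PU.1, was at 5.06, 1.82 and 28.1 CPM in HS3A8-high and 20.8, 27.0 and 73.5 CPM in HS3A8-low (log2 fold change -2.23 ± 0.43 SE, adjusted p = 0.0282), where HS3A8-high 3 exceeded 2 HS3A8-low libraries. Elf1 and Elf4 changed by -0.55 and -0.50 (adjusted p = 0.0259 and 0.0446). Gabpa, Elf2 and Etv6 were not called, with log2 fold changes of 0.046, 0.31 and -0.54. In the RUNX group Cbfb, the partner subunit of RUNX proteins, was at 40.1, 36.3 and 36.8 CPM in HS3A8-high and 97.9, 81.4 and 64.7 CPM in HS3A8-low (log2 fold change -1.09 ± 0.12 SE, adjusted p = 0.00754), and Runx2 at 0.768, 0.304 and 2.39 CPM in HS3A8-high and 6.62, 5.70 and 7.94 CPM in HS3A8-low (log2 fold change -2.81 ± 0.52 SE, adjusted p = 0.0269). Runx1, which megakaryocytes require, was at 30.3, 25.6 and 30.5 CPM in HS3A8-high and 57.7, 36.7 and 37.3 CPM in HS3A8-low (log2 fold change -0.58 ± 0.15 SE, adjusted p = 0.0582) and missed the threshold, although its fractions did not overlap. Runx3 was not called (-0.16 on the log2 scale, adjusted p = 0.573).

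Of 14 tested HOX, MEIS and PBX genes 2 were called (14.3%, near the 11.6% of all tested genes), both lower in HS3A8-high. Meis1, a cofactor of HOX proteins, was at 4.99, 4.86 and 3.52 CPM in HS3A8-high and 67.5, 39.9 and 27.3 CPM in HS3A8-low (log2 fold change -3.26 ± 0.21 SE, adjusted p = 0.00263), with 18.3% of its exon length shared with other genes, and Hoxa9 at 9.16, 7.75 and 8.38 CPM in HS3A8-high and 13.3, 15.7 and 15.2 CPM in HS3A8-low (log2 fold change -0.80 ± 0.19 SE, adjusted p = 0.0496). Hhex, Pknox1 and Tgif1 were not called (adjusted p = 0.0666, 0.151 and 0.111). Hlf, another stem cell factor, was at 1.601, 1.37 and 0.665 CPM in HS3A8-high and 8.51, 12.6 and 5.61 CPM in HS3A8-low (log2 fold change -2.87 ± 0.32 SE, adjusted p = 0.00783). Among SOX, FOX, NFAT, MAF, NFI and MEF2 genes and their neighbours in that list 8 of 41 were called (19.5%, against 11.6% of all tested genes). Mef2c, which acts in megakaryocytes and lymphoid cells, was at 17.6, 10.9 and 14.8 CPM in HS3A8-high and 74.0, 46.8 and 29.4 CPM in HS3A8-low (log2 fold change -1.73 ± 0.24 SE, adjusted p = 0.0137). Nfe2, the factor of platelet production that erythroid cells also express, was at 182, 172 and 172 CPM in HS3A8-high and 325, 269.7 and 257 CPM in HS3A8-low (log2 fold change -0.69 ± 0.076 SE, adjusted p = 0.00759), and Nfatc1 at 25.5, 18.8 and 19.2 CPM in HS3A8-high and 52.1, 38.2 and 33.9 CPM in HS3A8-low (log2 fold change -0.96 ± 0.12 SE, adjusted p = 0.00983). Sox4, of which 54.6% of the exon length is shared, and Sox5 were called at -2.47 and -1.69. Toward HS3A8-high, Foxm1, the activator of mitotic genes, was at 74.3, 66.3 and 69.7 CPM in HS3A8-high and 54.6, 45.3 and 52.1 CPM in HS3A8-low (log2 fold change 0.47 ± 0.087 SE, adjusted p = 0.0265). Nfia, an NFI factor of erythroid differentiation, was at 108, 70.8 and 69.2 CPM in HS3A8-high and 69.7, 58.0 and 41.7 CPM in HS3A8-low (log2 fold change 0.55 ± 0.11 SE, adjusted p = 0.0328), higher in each pair while the fractions overlapped. Myb, Nfe2l2 and Mybl2 were abundant and not called, at -0.12, 0.13 and 0.16 on the log2 scale.

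Of 17 tested KLF and SP factors 5 were called, 2 higher in HS3A8-high and 3 lower. Klf1, the erythroid Krüppel-like factor, was at 869.7, 1035 and 964 CPM in HS3A8-high and 652, 823 and 814 CPM in HS3A8-low (log2 fold change 0.33 ± 0.058 SE, adjusted p = 0.0243), without overlap, and Klf3, one of its targets, at 141, 106 and 85.4 CPM in HS3A8-high and 108, 85.2 and 56.6 CPM in HS3A8-low (log2 fold change 0.43 ± 0.087 SE, adjusted p = 0.0335), with overlap. Klf6 was at 9.92, 7.83 and 22.6 CPM in HS3A8-high and 49.1, 66.9 and 88.0 CPM in HS3A8-low (log2 fold change -2.42 ± 0.22 SE, adjusted p = 0.00485), without overlap. Klf2 and Klf4 were higher in HS3A8-low within each pair, but Klf4 was at 0.384, 0.0760 and 4.59 CPM in HS3A8-high and 2.13, 1.08 and 13.6 CPM in HS3A8-low (log2 fold change -2.16 ± 0.47 SE, adjusted p = 0.0403) and Klf2 at 1.54, 2.28 and 15.6 CPM in HS3A8-high and 12.03, 8.73 and 42.0 CPM in HS3A8-low (log2 fold change -2.02 ± 0.32 SE, adjusted p = 0.0183), so both stood high in both libraries of replicate 3. Of 11 MYC family genes 3 were called, all lower in HS3A8-high. Mycl was called at -3.43 and Mxd4, a MYC antagonist, at -0.74, beside Mycn above. Myc itself was at 704, 801 and 816 CPM in HS3A8-high and 742, 807 and 650.3 CPM in HS3A8-low (log2 fold change 0.079 ± 0.089 SE, adjusted p = 0.604), with overlapping fractions. Its partner Max and Mlx, a further gene of the list, had adjusted p of 0.120 and 0.513.

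In the list of CEBP, IRF, NF-κB and Ikaros genes 7 of 24 were called, 6 of them higher in HS3A8-low. Bcl11b, the T-lineage factor, was at 0.384, 0 and 0 CPM in HS3A8-high and 10.5, 3.97 and 2.94 CPM in HS3A8-low (log2 fold change -5.63 ± 0.74 SE, adjusted p = 0.0115). Irf8, which directs monocyte and dendritic cell fates, was at 5.38, 2.36 and 74.3 CPM in HS3A8-high and 47.2, 43.5 and 209 CPM in HS3A8-low (log2 fold change -2.65 ± 0.46 SE, adjusted p = 0.0229), Irf5 at 1.09, 0.304 and 17.3 CPM in HS3A8-high and 7.17, 10.9 and 43.3 CPM in HS3A8-low (log2 fold change -2.50 ± 0.58 SE, adjusted p = 0.0468), and Cebpa, the granulocyte factor, at 1.02, 0.760 and 5.25 CPM in HS3A8-high and 3.71, 2.96 and 13.7 CPM in HS3A8-low (log2 fold change -1.69 ± 0.31 SE, adjusted p = 0.0269). For these last 3, HS3A8-high 3 exceeded HS3A8-low 1 and HS3A8-low 2, and the adjusted p without the block was 0.466, 0.539 and 0.413. The NF-κB inhibitor Nfkbia was at 85.1, 90.9 and 94.2 CPM in HS3A8-high and 129.9, 146 and 155 CPM in HS3A8-low (log2 fold change -0.67 ± 0.072 SE, adjusted p = 0.00738), without overlap, and Nfkbie was called at -1.61. NF-κB subunits Rela and Nfkb1 were not called (0.11 and -0.094). Ikzf1, the Ikaros factor, was the exception, at 346, 269 and 279.6 CPM in HS3A8-high and 280.1, 229 and 196 CPM in HS3A8-low (log2 fold change 0.35 ± 0.078 SE, adjusted p = 0.0414), higher in HS3A8-high in each pair. Of the nuclear receptors 3 of 19 were called (15.8%, against 11.6% of all tested genes). Rxrg had no count in HS3A8-high and 5.29, 5.84 and 1.99 CPM in HS3A8-low (adjusted p = 0.0178), at least 21.2-fold higher against the same floor. Rora is given above, and Esr1, the estrogen receptor alpha, was at 0.256, 0.608 and 1.73 CPM in HS3A8-high and 1.22, 2.38 and 6.74 CPM in HS3A8-low (log2 fold change -2.02 ± 0.43 SE, adjusted p = 0.0364), with HS3A8-high 3 above HS3A8-low 1. Rxrb, Nr1h2 and the glucocorticoid receptor Nr3c1 were not called (-0.078, -0.081 and 0.14).

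**Figure D3:**
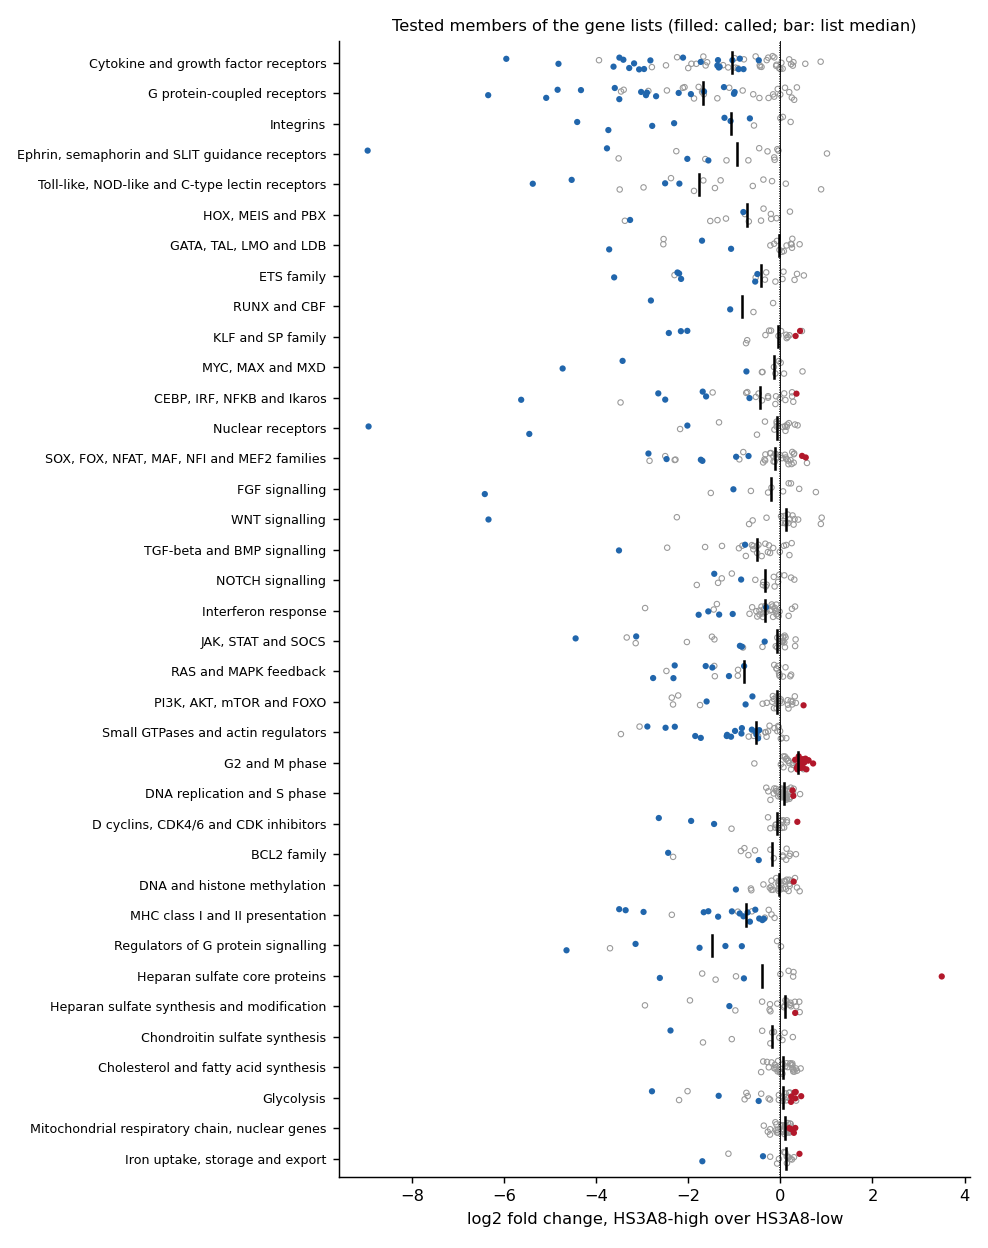
Log2 fold change of HS3A8-high over HS3A8-low (x axis) for the tested members of 37 gene lists (rows), 1 point per gene, filled where called (red, higher in HS3A8-high, and blue, higher in HS3A8-low) and with the list median as a bar. The 5 receptor lists and the RGS list have the 6 lowest medians, and the G2 and M phase list has the highest, at 0.39, with its 21 called members to the right of 0.

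Across 16 pathway lists 403 genes passed the filter and 95 were called (23.6%), 26 higher in HS3A8-high and 69 higher in HS3A8-low. Without the block 48 were called, and with replicate 1, 2 or 3 left out 27, 51 and 182. In the growth factor pathways the shares called lay on both sides of the 11.6% of all tested genes, at 18.2% for FGF, 11.1% for NOTCH, 8% for TGF-beta and BMP and 5.26% for WNT genes. In the FGF list 2 of 11 tested genes were called. Fgf3, described above, was the 1 ligand of 22 that passed the filter, and Dusp6, the phosphatase that feeds back on ERK, was at 26.1, 20.1 and 22.01 CPM in HS3A8-high and 46.5, 42.9 and 48.4 CPM in HS3A8-low (log2 fold change -1.02 ± 0.12 SE, adjusted p = 0.00869), without overlap. Receptors of the list had no call, the decoy receptor Fgfrl1 being at 63.0, 55.8 and 46.7 CPM in HS3A8-high and 40.4, 44.9 and 38.9 CPM in HS3A8-low (log2 fold change 0.41 ± 0.11 SE, adjusted p = 0.0717), and Spred1 and Frs2 had adjusted p of 0.537 and 0.818. Tcf7 was the single call of 19 tested WNT genes. None of 19 WNT ligands passed the filter, and beta-catenin (Ctnnb1) was at 409.9, 371 and 385 CPM in HS3A8-high and 379, 369 and 293 CPM in HS3A8-low (log2 fold change 0.17 ± 0.088 SE, adjusted p = 0.252). Csnk1a1 and Axin1 of the destruction complex had adjusted p of 0.899 and 0.483. In the TGF-beta and BMP list 2 of 25 were called, the receptor Tgfbr2, at 20.7, 18.6 and 17.9 CPM in HS3A8-high and 45.0, 33.3 and 22.3 CPM in HS3A8-low (log2 fold change -0.77 ± 0.18 SE, adjusted p = 0.0481), and the target gene Id2, an inhibitor of E proteins, at 2.497, 2.05 and 7.98 CPM in HS3A8-high and 42.4, 41.1 and 43.2 CPM in HS3A8-low (log2 fold change -3.50 ± 0.39 SE, adjusted p = 0.00765). Both lay lower in HS3A8-high without overlap. Tgfb1, Eng and Twsg1 were not called (-0.27, 0.20 and 0.13). The NOTCH list had 2 calls of 18, Mfng, a glycosyltransferase of NOTCH receptors, at 21.96, 20.6 and 22.5 CPM in HS3A8-high and 37.9, 43.1 and 36.6 CPM in HS3A8-low (log2 fold change -0.85 ± 0.13 SE, adjusted p = 0.0171), and Dtx4, at 0.960, 0.532 and 4.79 CPM in HS3A8-high and 2.61, 1.01 and 15.7 CPM in HS3A8-low (log2 fold change -1.44 ± 0.34 SE, adjusted p = 0.0499), highest in both libraries of replicate 3. Dtx3, Rfng and Notch2 had adjusted p of 0.0806, 0.127 and 0.0985.

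Cytokine signalling below the receptors was called in part. Of 28 tested JAK, STAT and SOCS genes 5 were called (17.9%, against 11.6% of all tested genes), all higher in HS3A8-low. The median log2 fold change of this list was -0.067. Stat4, the effector of interleukin-12, was at 0.320, 0.0760 and 0.200 CPM in HS3A8-high and 4.19, 4.26 and 5.01 CPM in HS3A8-low (log2 fold change -4.45 ± 0.55 SE, adjusted p = 0.0103), with 26.7% of its exon length shared. The feedback inhibitor Socs1 was at 0.256, 0.532 and 0.200 CPM in HS3A8-high and 2.73, 4.11 and 1.81 CPM in HS3A8-low (log2 fold change -3.13 ± 0.49 SE, adjusted p = 0.0186), and Jak3, the kinase of the common gamma chain, at 27.98, 21.1 and 26.4 CPM in HS3A8-high and 47.6, 49.9 and 41.0 CPM in HS3A8-low (log2 fold change -0.88 ± 0.15 SE, adjusted p = 0.0221). Pim2 and the phosphatase Ptpn6 were called at -0.83 and -0.34. Stat5a and Stat5b, which carry the erythropoietin signal, were not called, and neither was the kinase Jak1. Stat5a was at 297, 273 and 280.1 CPM in HS3A8-high and 318, 289 and 237 CPM in HS3A8-low (log2 fold change 0.018 ± 0.088 SE, adjusted p = 0.915), and Stat5b and Jak1 had adjusted p of 0.588 and 0.525. In the interferon response list 5 of 35 were called, a share of 14.3% near the 11.6% of all genes. Irf1 was at 11.5, 5.70 and 8.91 CPM in HS3A8-high and 33.4, 26.9 and 26.9 CPM in HS3A8-low (log2 fold change -1.77 ± 0.19 SE, adjusted p = 0.00750), and the RNA sensor Ddx58 (RIG-I) at 15.2, 7.75 and 7.32 CPM in HS3A8-high and 32.2, 16.8 and 25.6 CPM in HS3A8-low (log2 fold change -1.33 ± 0.20 SE, adjusted p = 0.0169), both without overlap. Zbp1, Oasl2 and Irf9 were called at -1.57, -1.03 and -0.31, and Irgm1, Isg20 and Ifi27 were not (-0.018, -0.12 and -0.17).

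RAS and MAPK regulators were lower in HS3A8-high in 7 of 23 tested genes. Dusp1, a phosphatase of MAP kinases, was at 116, 122 and 172 CPM in HS3A8-high and 416, 396 and 433 CPM in HS3A8-low (log2 fold change -1.62 ± 0.11 SE, adjusted p = 0.00263), and Dusp2 at 11.5, 9.35 and 15.03 CPM in HS3A8-high and 50.4, 68.7 and 56.8 CPM in HS3A8-low (log2 fold change -2.29 ± 0.20 SE, adjusted p = 0.00436). Rasal3, a GTPase-activating protein of RAS, was at 55.3, 51.8 and 53.5 CPM in HS3A8-high and 108, 124 and 116 CPM in HS3A8-low (log2 fold change -1.12 ± 0.091 SE, adjusted p = 0.00357), and Rasgrp2, an exchange factor of platelets, at 3.33, 2.20 and 17.6 CPM in HS3A8-high and 38.5, 29.5 and 47.8 CPM in HS3A8-low (log2 fold change -2.76 ± 0.47 SE, adjusted p = 0.0223). The 4 genes had no overlap between fractions. Dusp5 and Rras2 were called at -2.32 and -1.48, the former with 22.1% of its exon length shared. Nras and Hras were not called, with log2 fold changes of 0.058 and 0.23.

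Immediate-early genes, which are transcribed within minutes of a stimulus, and heat-shock genes were called in opposite directions. Of 12 tested immediate-early genes 10 were called, all higher in HS3A8-low (median log2 fold change -1.37), and of 10 heat-shock genes 5 were called, all higher in HS3A8-high (median 0.21). Egr1 was at 23.7, 10.1 and 13.97 CPM in HS3A8-high and 212, 112 and 81.4 CPM in HS3A8-low (log2 fold change -3.05 ± 0.18 SE, adjusted p = 0.00263). Jun, a subunit of AP-1, was at 122, 117 and 147 CPM in HS3A8-high and 378, 305 and 352 CPM in HS3A8-low (log2 fold change -1.43 ± 0.089 SE, adjusted p = 0.00263), and Zfp36, which destabilizes AU-rich mRNAs, at 30.5, 20.4 and 59.4 CPM in HS3A8-high and 170.2, 153 and 238 CPM in HS3A8-low (log2 fold change -2.45 ± 0.17 SE, adjusted p = 0.00273). The orphan receptor Nr4a1 was at 1.09, 0.380 and 4.46 CPM in HS3A8-high and 18.5, 16.7 and 19.0 CPM in HS3A8-low (log2 fold change -3.53 ± 0.59 SE, adjusted p = 0.0214), and Btg2 and Ier3 were called at -2.57 and -1.80. HS3A8-low exceeded HS3A8-high in all libraries for these 6 genes. Among chaperones, the co-chaperone Hsph1 was at 301, 298 and 395 CPM in HS3A8-high and 228, 238 and 279 CPM in HS3A8-low (log2 fold change 0.41 ± 0.066 SE, adjusted p = 0.0200), and the cytosolic chaperone Hsp90aa1 at 1911, 1869.8 and 2162 CPM in HS3A8-high and 1564, 1571 and 1499 CPM in HS3A8-low (log2 fold change 0.36 ± 0.068 SE, adjusted p = 0.0280). The mitochondrial chaperonin Hspd1 was at 1368, 1460.3 and 1492 CPM in HS3A8-high and 1061, 1164 and 1147 CPM in HS3A8-low (log2 fold change 0.36 ± 0.049 SE, adjusted p = 0.0129). Hsp90ab1 and Hspa8 were called at 0.23 and 0.21, and Dnaja1, Hspe1 and Dnajb1 were not (0.12, -0.080 and -0.15). Hspe1, which encodes the partner of Hspd1, was 234, 319 and 321 CPM in HS3A8-high and 203, 267 and 521 CPM in HS3A8-low, and it was higher in HS3A8-high once replicate 3 was left out (log2 fold change 0.25, adjusted p = 0.00414), while it stood at -0.25 without replicate 2 (adjusted p = 0.511). Without the block 8 immediate-early and 2 heat-shock genes were called. With replicate 1, 2 or 3 left out 8, 9 and 10 immediate-early genes and 0, 0 and 7 heat-shock genes were called by edgeR, so the heat-shock calls were lost without replicate 1 or 2.

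Small GTPases of the cytoskeleton and actin regulators were called in 16 of 34 tested genes, all higher in HS3A8-low. None of the 16 had overlapping fractions. Overlap was also absent in 1165 of all 1367 called genes and in 27.8% of all tested genes. Arhgef6, an exchange factor of RAC and CDC42, was at 2.18, 1.29 and 11.97 CPM in HS3A8-high and 23.8, 25.6 and 34.0 CPM in HS3A8-low (log2 fold change -2.89 ± 0.52 SE, adjusted p = 0.0255). Rhob was at 5.76, 2.13 and 11.7 CPM in HS3A8-high and 30.8, 23.01 and 29.4 CPM in HS3A8-low (log2 fold change -2.29 ± 0.38 SE, adjusted p = 0.0215), and Rhof, a GTPase of filopodia, at 1.22, 0.836 and 2.66 CPM in HS3A8-high and 8.87, 7.93 and 7.86 CPM in HS3A8-low (log2 fold change -2.49 ± 0.42 SE, adjusted p = 0.0217). Tiam2, Arhgap25 and Arhgef3 were called at -1.85, -1.73 and -1.17. Cdc42, Rhoa and Rac1 were abundant and not called. Cdc42 was at 649, 627 and 646 CPM in HS3A8-high and 641, 643 and 692 CPM in HS3A8-low (log2 fold change -0.040 ± 0.057 SE, adjusted p = 0.688), and Rhoa and Rac1 had log2 fold changes of -0.067 and 0.038, with 51.4% of the exon length of Rac1 shared. In the PI3K list 4 of 30 were called (13.3%, near the 11.6% of all tested genes). Pik3cd, a catalytic subunit of leukocytes, was at 65.1, 55.0 and 67.2 CPM in HS3A8-high and 127, 89.4 and 102 CPM in HS3A8-low (log2 fold change -0.76 ± 0.099 SE, adjusted p = 0.0115), and the mTOR inhibitor Ddit4 at 6.34, 9.43 and 10.04 CPM in HS3A8-high and 22.2, 33.3 and 22.8 CPM in HS3A8-low (log2 fold change -1.60 ± 0.19 SE, adjusted p = 0.00923), while the regulatory subunit Pik3r2 was higher in HS3A8-high, at 271, 254.8 and 242 CPM in HS3A8-high and 184, 192 and 166 CPM in HS3A8-low (log2 fold change 0.50 ± 0.068 SE, adjusted p = 0.0124). Pik3cg was called at -0.61. Akt1, Akt2 and Inpp5d were not called (0.0079, -0.046 and -0.087).

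Antigen presentation genes were called in 15 of 22 tested members, all higher in HS3A8-low. Cd74, the invariant chain of MHC class II, was at 9.35, 6.99 and 19.0 CPM in HS3A8-high and 109.5, 126 and 143 CPM in HS3A8-low (log2 fold change -3.50 ± 0.23 SE, adjusted p = 0.00263). The class II chains H2-Aa and H2-Ab1 were at 2.37, 1.82 and 6.85 CPM in HS3A8-high and 29.1, 34.4 and 39.2 CPM in HS3A8-low (log2 fold change -3.36 ± 0.34 SE, adjusted p = 0.00603) and at 24.2, 25.8 and 28.3 CPM in HS3A8-high and 62.1, 73.4 and 99.999 CPM in HS3A8-low (log2 fold change -1.56 ± 0.12 SE, adjusted p = 0.00324). None of the 3 overlapped between fractions. H2-Eb1 and H2-DMb1 were called at -2.97 and -1.66. H2-Q6 was called at -1.35, which is uncertain because its class I copies are nearly identical. Tap1, Tapbp and Psmb10, which supply class I peptides, were not called (-0.34, -0.19 and -0.13). Without the block 10 genes of the list were called, and with replicate 1, 2 or 3 left out 8, 12 and 17.

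Mitotic genes were called in 1 direction. Of 39 G2 and M phase genes, all of which passed the filter, 21 were called (53.8%, where 3.32% of all tested genes were called in this direction), and all 21 were higher in HS3A8-high without overlap of the fractions. Overlap was also absent in 1165 of all 1367 called genes. The other 18 genes of the list were not called. Differences were small, with a list median of 0.39. Plk1, the kinase of mitotic entry, was at 275, 270.4 and 281 CPM in HS3A8-high and 165, 176 and 201 CPM in HS3A8-low (log2 fold change 0.61 ± 0.075 SE, adjusted p = 0.00985). Ccnb1, the cyclin of CDK1, was at 506, 477 and 466 CPM in HS3A8-high and 315, 320.4 and 379 CPM in HS3A8-low (log2 fold change 0.52 ± 0.087 SE, adjusted p = 0.0218), and Aurkb, a kinase of the spindle checkpoint, at 228, 238 and 248 CPM in HS3A8-high and 140.1, 163 and 189.6 CPM in HS3A8-low (log2 fold change 0.55 ± 0.082 SE, adjusted p = 0.0170). The kinesins Kif18b and Kif2c were called at 0.60 and 0.57. Cenpa, Ccnb2 and Birc5 were not called in the 3 pairs, at 228, 232 and 233 CPM in HS3A8-high and 192, 210.2 and 230.1 CPM in HS3A8-low for Ccnb2 (log2 fold change 0.14 ± 0.073 SE, adjusted p = 0.266), and were called without replicate 3 (adjusted p = 0.000143, 0.0112 and 0.00238), but not without replicate 1 or 2. The median log2 ratio over the list was 0.49, 0.40 and 0.24 in pairs 1, 2 and 3. A relation of the smaller ratio in pair 3 to its granulocyte and monocyte transcripts was not tested. With replicate 1, 2 or 3 left out 1, 6 and 35 genes were called, and 9 without the block. Cdc25b, a phosphatase of mitotic entry singled out after its values were seen, had the lowest log2 fold change of the list, at 19.9, 21.1 and 23.4 CPM in HS3A8-high and 35.3, 33.3 and 27.0 CPM in HS3A8-low (log2 fold change -0.56 ± 0.16 SE, adjusted p = 0.0733). Promoters were listed for 14 of the 21 called genes, and 13 of these 14 held a CCAAT match and 13 a TTTGAA match, which are shown in capitals for Ube2c above. CCAAT was present in 39.6% and TTTGAA in 11.9% of the promoters of 9000 tested genes. Genes of this list were chosen as mitotic genes, and no test was made of these shares.

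Of 44 replication genes of S phase 2 were called (4.55%), and with replicate 1, 2 or 3 left out 0, 0 and 16. The 2 were Rrm1, a ribonucleotide reductase subunit, at 1124, 1096 and 1096 CPM in HS3A8-high and 868, 959.9 and 903 CPM in HS3A8-low (log2 fold change 0.28 ± 0.058 SE, adjusted p = 0.0345), and Pola2 at 0.27 (adjusted p = 0.0498). The helicase subunits Mcm6, Mcm5 and Mcm2 were not called (0.032, 0.13 and 0.10), and the list median was 0.078. In the list of D cyclins, CDK4/6 and CDK inhibitors 4 of 18 were called, 3 of them higher in HS3A8-low. Cdkn1a, the p21 inhibitor, was at 1.79, 2.05 and 5.99 CPM in HS3A8-high and 10.9, 9.67 and 12.9 CPM in HS3A8-low (log2 fold change -1.94 ± 0.36 SE, adjusted p = 0.0261), Cdkn2d, an inhibitor of CDK4 and CDK6, at 11.1, 7.83 and 13.6 CPM in HS3A8-high and 30.9, 22.8 and 33.8 CPM in HS3A8-low (log2 fold change -1.44 ± 0.14 SE, adjusted p = 0.00589), and Ccng2, a cyclin of arrested cells, at 3.78, 4.10 and 7.72 CPM in HS3A8-high and 27.6, 28.9 and 37.6 CPM in HS3A8-low (log2 fold change -2.64 ± 0.19 SE, adjusted p = 0.00273). None of the 3 overlapped between fractions. E2f4 was higher in HS3A8-high, at 638, 653 and 640.0 CPM in HS3A8-high and 478, 529.8 and 489 CPM in HS3A8-low (log2 fold change 0.37 ± 0.058 SE, adjusted p = 0.0185), and Cdk4, Trp53 and Ccnd3 were not called (0.082, 0.14 and -0.22). In the BCL2 family 2 of 16 were called (12.5%, near the 11.6% of all tested genes). These were the survival gene Bcl2, at 6.66, 4.41 and 5.72 CPM in HS3A8-high and 46.2, 23.3 and 24.4 CPM in HS3A8-low (log2 fold change -2.44 ± 0.19 SE, adjusted p = 0.00325), and Bnip3l, which clears mitochondria from maturing red cells, at 144, 160.4 and 144 CPM in HS3A8-high and 188, 199.7 and 234 CPM in HS3A8-low (log2 fold change -0.47 ± 0.094 SE, adjusted p = 0.0316), both higher in HS3A8-low without overlap. Bcl2l13, Mcl1 and Bid were not called (0.21, -0.22 and 0.13).

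**Figure D4:**
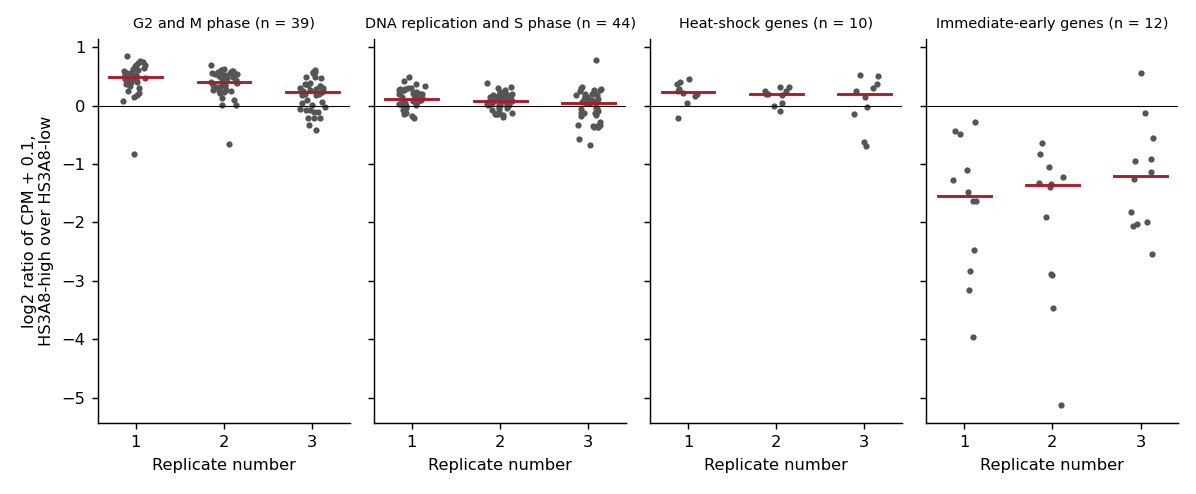
Log2 ratio of CPM plus 0.1 between the HS3A8-high and HS3A8-low library (y axis) of each replicate number (x axis) for the tested genes of 4 groups, 1 grey point per gene with the median as a red bar. Immediate-early genes lie below 0 in each pair apart from 1 gene in pair 3, while G2 and M phase genes lie mostly above 0, with medians of 0.49, 0.40 and 0.24 in pairs 1, 2 and 3, and replication and heat-shock genes lie near 0.

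The HS genes bear on what HS3A8 binds. In 2 HS lists and 1 of chondroitin sulfate 43 genes passed the filter and 6 were called (14%, against 11.6% over all genes), and without the block 3. With replicate 1, 2 or 3 left out 2, 3 and 12 were called. Among 15 core proteins 10 were tested and 3 called (30%). Besides Gpc4 these were Srgn, the granule proteoglycan serglycin, at 193, 212 and 223 CPM in HS3A8-high and 325, 350.3 and 418 CPM in HS3A8-low (log2 fold change -0.79 ± 0.068 SE, adjusted p = 0.00401), and Col18a1, a collagen that carries HS, at 0.896, 0.228 and 0.0665 CPM in HS3A8-high and 4.62, 1.23 and 0.950 CPM in HS3A8-low (log2 fold change -2.62 ± 0.56 SE, adjusted p = 0.0373), both higher in HS3A8-low without overlap. Agrn (agrin) was at 15.9, 13.1 and 9.98 CPM in HS3A8-high and 15.01, 10.5 and 7.17 CPM in HS3A8-low (log2 fold change 0.29 ± 0.18 SE, adjusted p = 0.354), and Cd44, of which some isoforms carry HS, was not called (0.18 on the log2 scale, adjusted p = 0.266). The syndecans Sdc1, Sdc2 and Sdc3 had adjusted p of 0.677, 0.165 and 0.999. Gpc2, with 55.6% of its exon length shared, and Gpc1 were not called, at -1.41 and -1.70 on the log2 scale. Of 10 tested genes for the linker and chain polymerisation none was called by the blocked edgeR test. On the same 3 pairs DESeq2, DESeq2 size factors and median centring each called 1, limma voom 2 and upper-quartile scaling 0. All of these calls were higher in HS3A8-high. Ext2 was at 199, 212 and 217 CPM in HS3A8-high and 171, 194 and 174 CPM in HS3A8-low (log2 fold change 0.22 ± 0.070 SE, adjusted p = 0.0953), and the other polymerisation genes Ext1 and Extl3 had log2 fold changes of 0.42 and 0.41 (adjusted p = 0.0947 and 0.0523). The other 7, Xylt1, Xylt2, B4galt7, B3galt6, B3gat3, Fam20b and Extl2, lay between -0.22 and 0.35. Of 12 tested modification and breakdown genes 2 were called (16.7%), in opposite directions. With upper-quartile scaling 1 was called, higher in HS3A8-low, and without the block 0, so Hs6st1 was called in neither. Hs6st1, a 6-O-sulfotransferase, was at 209, 111 and 184 CPM in HS3A8-high and 179.7, 82.9 and 146 CPM in HS3A8-low (log2 fold change 0.32 ± 0.074 SE, adjusted p = 0.0449), higher in HS3A8-high in each pair with overlapping fractions. Ndst1, an N-deacetylase and N-sulfotransferase, was at 12.7, 5.93 and 7.72 CPM in HS3A8-high and 29.6, 15.3 and 12.8 CPM in HS3A8-low (log2 fold change -1.11 ± 0.19 SE, adjusted p = 0.0240), lower in HS3A8-high without overlap. Its relative Ndst2 was at 126, 122 and 108 CPM in HS3A8-high and 111, 112 and 109 CPM in HS3A8-low (log2 fold change 0.092 ± 0.077 SE, adjusted p = 0.479), and Hs2st1 and Glce were not called, at 0.21 and 0.11 on the log2 scale. Heparanase (Hpse), which cleaves HS chains, was at 0, 0 and 5.32 CPM in HS3A8-high and 1.22, 1.66 and 19.9 CPM in HS3A8-low (log2 fold change -2.94 ± 0.78 SE, adjusted p = 0.0635), and its fractions overlapped. Sulf2, Papss1, Papss2, Slc35b2, Slc35b3 and Ndst3 were not called, at -1.96 to 0.32. In the chondroitin sulfate list 1 of 11 was called (9.09%), the sulfotransferase Chst1 at 1.73, 2.81 and 1.20 CPM in HS3A8-high and 10.2, 9.88 and 8.72 CPM in HS3A8-low (log2 fold change -2.39 ± 0.32 SE, adjusted p = 0.0124). Csgalnact2, Chst12 and Chpf2 were not called (-0.22, -0.18 and 0.045), nor were Dse, Csgalnact1, Chsy1, Chst14, Chst15, Chpf and Chst11, which lay between -1.68 and 0.27.

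In 4 metabolic lists 16 of 114 tested genes were called (14%), 11 of them higher in HS3A8-high, and without the block 2. With replicate 1, 2 or 3 left out 0, 1 and 66 were called, all by edgeR. Among these lists glycolysis had the highest share of calls, 33.3% against 11.6% of all genes. There, 9 of 27 tested genes were called, 6 toward HS3A8-high and 3 toward HS3A8-low. Pklr, the pyruvate kinase of red cells and liver, was at 153, 155 and 145 CPM in HS3A8-high and 113, 116 and 102 CPM in HS3A8-low (log2 fold change 0.45 ± 0.070 SE, adjusted p = 0.0178), while Pkm, the pyruvate kinase of most other cells, was at 12.7, 10.9 and 137 CPM in HS3A8-high and 140.0, 165 and 338 CPM in HS3A8-low (log2 fold change -2.79 ± 0.51 SE, adjusted p = 0.0259). Pkm did not overlap between fractions, but HS3A8-high 3 nearly reached HS3A8-low 1, and without replicate 3 its adjusted p was 1.45e-11. Hk1, Slc16a1, Pfkm, Ldha and Tpi1 were called between 0.23 and 0.33, and Ldhb and Pgam1 at -1.34 and -0.47. Gapdh, Eno1 and Aldoa were not called (0.17, 0.12 and 0.13). Nuclear genes of the respiratory chain had 4 calls of 41 (9.76%), Cyc1, Ndufs1, Sdha and Atp5b, at 0.19 to 0.32. Of 30 cholesterol and fatty acid synthesis genes 0 were called by the blocked edgeR test, 7 had an unadjusted p under 0.05, and DESeq2 called 1. Fasn was at 359, 255.3 and 236 CPM in HS3A8-high and 294, 226 and 172 CPM in HS3A8-low (log2 fold change 0.31 ± 0.077 SE, adjusted p = 0.0564). Iron genes had 3 calls of 16 (18.8%, against 11.6% of all genes). The ferrireductase Steap3 was higher in HS3A8-high, at 261, 237 and 243 CPM in HS3A8-high and 185, 191 and 180.1 CPM in HS3A8-low (log2 fold change 0.41 ± 0.069 SE, adjusted p = 0.0213). Hmox1 and Ncoa4, which release iron from heme and ferritin, were lower in HS3A8-high, at -1.69 and -0.38. DNA and histone methylation genes had 2 calls of 33 (6.06%, against 11.6% of all genes). Dnmt1, the maintenance methyltransferase, was at 656, 549 and 532 CPM in HS3A8-high and 522, 480.4 and 419 CPM in HS3A8-low (log2 fold change 0.29 ± 0.061 SE, adjusted p = 0.0371), and Kmt2a, a histone H3K4 methyltransferase, at 20.6, 11.6 and 14.6 CPM in HS3A8-high and 36.5, 26.3 and 27.4 CPM in HS3A8-low (log2 fold change -0.97 ± 0.14 SE, adjusted p = 0.0158).

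Cell type markers also differed between the fractions. Erythroid markers, 30 tested, had 6 calls (20%, against 3.32% of all genes in this direction), all higher in HS3A8-high, with a median log2 fold change of 0.10. Car1, a carbonic anhydrase of red cells, was at 5405, 5774 and 5497 CPM in HS3A8-high and 4187, 4609 and 4216 CPM in HS3A8-low (log2 fold change 0.36 ± 0.040 SE, adjusted p = 0.00765). Megakaryocyte markers had 13 calls of 20, stem and multipotent progenitor markers 12 of 16, granulocyte and monocyte markers 12 of 18, mast cell markers 2 of 6, B-cell markers 3 of 6 and T and NK cell markers 6 of 15, all higher in HS3A8-low, where 8.27% of all genes were called. Without the block 1 erythroid, 5 megakaryocyte, 7 stem cell, 1 mast cell, 1 B-cell and 2 T and NK cell markers were called. With replicate 1, 2 or 3 left out the erythroid calls were 0, 0 and 16 by edgeR, and the megakaryocyte calls 6, 13 and 19. Stem cell calls were 9, 11 and 17, mast cell calls 2, 2 and 4, B-cell calls 0, 2 and 4, and T and NK cell calls 2, 5 and 14. Summed levels of the megakaryocyte list were 89.8 to 149 CPM in HS3A8-high and 363 to 659.6 CPM in HS3A8-low. MPB49 control libraries 1, 2 and 3 were at 423, 276 and 263 CPM, so control 1 lay above HS3A8-low 3. For stem cell markers the ranges were 258 to 308 and 549.6 to 581 CPM, and for T and NK cell markers 4.64 to 44.8 and 166 to 202 CPM. B-cell markers summed to 8.74 to 66.1 and 90.3 to 158 CPM. Among stem cell markers, Cd34, whose protein the gate excludes, was at 3.33, 0.836 and 11.0 CPM in HS3A8-high and 29.2, 63.2 and 75.7 CPM in HS3A8-low (log2 fold change -3.66 ± 0.56 SE, adjusted p = 0.0178). While 3 of 6 B-cell and 6 of 15 T and NK cell markers were called, a few genes of these lists were at or near 0. These few were singled out outside the rule for naming. Ms4a1, Pax5 and Cd4 had no count in any of the 6 libraries, Trac was at 0 in HS3A8-high and at 0.122, 0.361 and 0.345 CPM in HS3A8-low, and Cd3e was at 0, 0 and 0.998 CPM in HS3A8-high and 0.972, 1.73 and 1.21 CPM in HS3A8-low.

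Granulocyte and monocyte markers were high in both libraries of replicate 3. Lyz2 (lysozyme) was at 5.19, 3.57 and 425 CPM in HS3A8-high and 31.7, 41.6 and 1504 CPM in HS3A8-low (log2 fold change -2.45 ± 0.29 SE, adjusted p = 0.00857). Mpo (myeloperoxidase), not called in the 3 pairs, was at 6.08, 2.51 and 716 CPM in HS3A8-high and 52.9, 137 and 1652 CPM in HS3A8-low (log2 fold change -2.87 ± 0.74 SE, adjusted p = 0.0587). In the MPB49 control Lyz2 was at 56.5, 17.2 and 21.4 CPM. All 12 called members of the list overlapped between fractions. Without the block 0 of the 18 were called by edgeR, 0 of them with an unadjusted p under 0.05, and with replicate 1, 2 or 3 left out 1 of 21, 14 of 21 and 15 of 16 tested were called. The same replicate carried the high values of Spi1, Irf8, Irf5, Cebpa, Klf2, Klf4, Csf1r, Clec12a, Sema4a, Pkm and Prg2 given above. The part of these marker-bearing cells in the receptor and transcription factor results was not tested, and with replicate 1, 2 or 3 left out the receptor lists had 18, 39 and 92 calls and the transcription factor lists 10, 26 and 75.

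**Figure D5:**
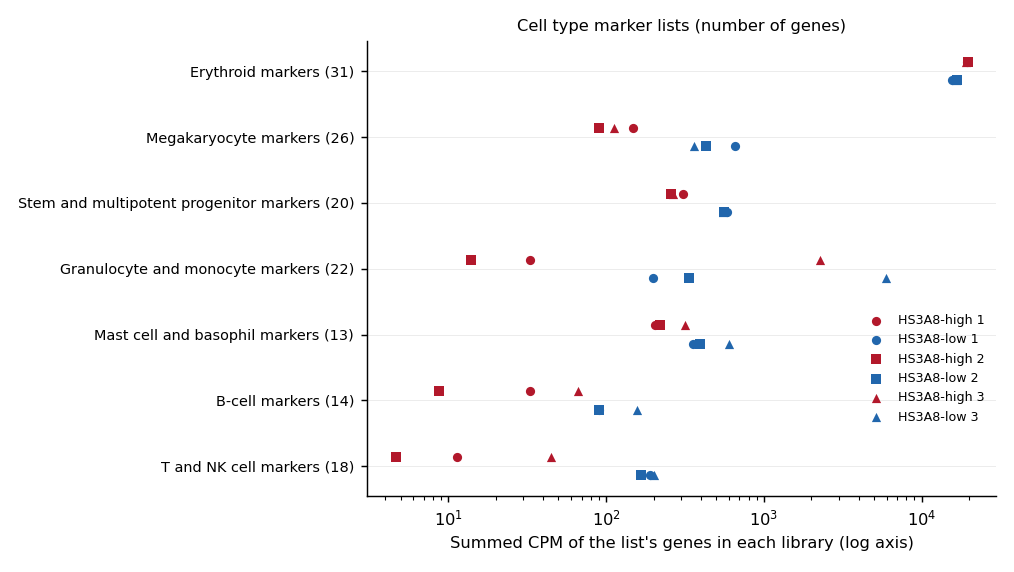
Summed CPM (x axis, log scale) of 7 cell type marker lists (rows, number of genes in brackets) in each library, with HS3A8-high in red, HS3A8-low in blue and the replicate number as the symbol. Erythroid sums are higher in HS3A8-high, all other lists are higher in HS3A8-low within each pair, and granulocyte and monocyte sums are highest in both libraries of replicate 3.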

How the data were processed

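RNA from 25000 sorted MEPs per library was sequenced, and read counts per gene for 9 libraries were deposited by the authors as raw, whole-number counts without normalization. The submitters' processing notes name STAR 2.5, HTSeq 0.6.1 and mm10, and the strand setting of the counting is not given in the sources used here. The 6 HS3A8 libraries were analysed in R 4.3.3 with edgeR 4.0.16 (TMM scaling, filterByExpr, glmQLFit and glmQLFTest), with the replicate number as a block and Benjamini-Hochberg adjustment over all tested genes, and genes were called at an adjusted p under 0.05. Of 35275 identifiers 34490 matched GENCODE M21, the source of symbols and exon overlap, with 99.9% of all counts. The study's methods name DESeq2. The replicate number was used as a block because the comparison is defined by it, and in the counts the libraries of 1 number deviated together (r from 0.345 to 0.517). CPM are TMM-scaled. SEs were derived from the log2 fold change and the F statistic. Depth was 11781637 to 15850037 counts per library, which allows up to 0.259 CPM at a count of 0, and intervals and floors cover counting error only.

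Gene lists and members were chosen with earlier results of these data known. Genes were named by a rule: the 15 largest called changes in each direction with a mean of at least 5 CPM outside erythroid and megakaryocyte marker lists, up to 6 called members per direction and 3 abundant uncalled members of each list, and any tested HS gene. Genes named outside this rule are marked as such, and values of 3 genes are not reported. Alternatives were DESeq2 1.42.0, limma 3.58.1 voom, other scalings, filters and thresholds, trends in GC content and length, the fit without the block, all 9 libraries, and each replicate left out. The uncentred GC and length trends and the filter on a mean of 5 CPM were chosen after seeing the data. The main fit was also run on counts simulated from the blocked fit itself. Such counts cannot show whether the block or replicate 3 is suitable, and no conclusion is drawn from them. Promoter sequences are from RefSeq on GRCm38.p6, which shares its coordinates with mm10.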

Additional observations from a re-analysis of the deposited data

How the results depend on the processing

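Against 1367 called genes, the fit without the replicate block called 451 (72 higher in HS3A8-high), limma voom 3089 and the fit of all 9 libraries 117. An adjusted p under 0.01 left 209 genes, and a test against a log2 fold change of 1 left 131. Removing GC and length trends without recentring, an alternative chosen after seeing the data, gave 4817, of which 22.6% were higher in HS3A8-low against 71.3%. Leaving out 1 replicate number gave 266 to 3569 calls, the latter without replicate 3, and leaving out HS3A8-high 1, 2 or 3 without the block gave 42, 53 and 439, and HS3A8-low 1, 2 or 3 gave 56, 0 and 244. In the edgeR fit with 0 calls 1900 genes had an unadjusted p under 0.05. DESeq2 (1817), its size factors (1444), upper-quartile scaling (1269), median centring (1527), the unfiltered table (1917), a filter at 10 counts on average (1367), centred GC and length trends (1930) and a filter at 5 CPM (1108) stayed within 1.5 times the count. No alternative called a gene in the direction opposite to its call above. Of the 211 named genes that were called, 90 kept their call without the block. Without the block and HS3A8-low 3 the log2 fold change was 0.21 for Dtx4, 0.16 for Clec12a, 0.073 for Klf4, 1.98 for Lyz2, 2.17 for Ms4a3, 0.94 for Prtn3 and 0.12 for Fcgr2b. With uncentred trends removed it was 0.26 for Ifngr1, 0.019 for Ptpn6, 0.23 for Akt2, 0.23 for Cdc42, 0.29 for Rxrb, 0.28 for Nr1h2 and 0.26 for Ftl1, and for Hspe1 it was 0.25 without replicate 3 and -0.25 without replicate 2. The causes were not tested. Without replicate 1, 3 of the 266 calls were higher in HS3A8-high.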
